A study of Mus musculus with 8 samples.

Results

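The genes described here are 44 interferon-stimulated genes, taken by symbol from the 24346 genes of an RNA-seq table of mouse bone marrow mesenchymal stem cells (MSCs). The list names genes known to be switched on by interferon or to carry its signal, and the genes were matched by symbol alone. All 44 were in the table, and 43 passed the limit on low values of a mean of 0.1 RPKM (read count scaled to transcript length and library size) over all 8 libraries, as did 15342 genes in all. Oas1g, a member of the OAS family, fell under that limit.

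The libraries formed 4 groups of 2, from wild type (WT) or Dnmt3l knockout (KO) cells on the C57BL/6 background that were either undifferentiated or differentiating towards bone. DNMT3L is a catalytically inactive cofactor of the de novo DNA methyltransferases, and the study asked how its absence affected these cells and their osteogenic differentiation. Undifferentiated MSCs of passage 4 were kept in αMEM with 20% serum. Differentiating MSCs spent 3 days in medium with 10% serum, 0.1 µM dexamethasone, 10 mM β-glycerophosphate and 50 µM ascorbic acid 2-phosphate. The donors were females of 8 to 16 weeks, KO and WT littermates from heterozygous crosses, and the study describes its MSC cultures as cells of 3 mice mixed per genotype, depleted of CD11b+ and CD45+ cells. No source used here states whether both libraries of 1 group stem from separate cultures, and p-values therefore measure only the spread between these libraries, which may be technical.

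Interferons are secreted proteins that warn cells of infection. Type I interferons bind the receptor chains IFNAR1 and IFNAR2, whose kinases JAK1 and TYK2 activate STAT2; STAT2 and IRF9 are part of the complex ISGF3, which enters the nucleus and binds the interferon-stimulated response element (ISRE) in the promoters of its targets. A second element, the gamma-activated site (GAS), is known for the response to interferon γ. The products of the target genes sense foreign nucleic acids, block viral replication and entry, modify proteins with ISG15, or raise the level of the signalling factors themselves. Many of these genes are also expressed without infection, and stem cells of several kinds are known for such a standing level.

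Promoter sequences of 35 of the 44 genes were found in the RefSeq table for GRCm38.p6, as 41 windows of 300 bases that start 250 bases before a transcription start. An ISRE core, searched on both strands as GAAA, any 2 bases and GAAA again, occurred in 18 of the 41 windows (43.9%), each of a different gene, against 3.44% of all 32851 windows in the table. A GAS core, TTC, any 3 bases and GAA, also on both strands, occurred in 11 windows (26.8%) against 8.3% of all windows. The 2 motifs occurred together in 5 genes and overlapped in Bst2 and Ifitm3. In 14 of the 18 genes the first ISRE core lay before the start, and in Ddx58, Eif2ak2, Ifih1 and Ifitm3 it lay after it. The 160 bases before the start are printed for 5 of the genes with an ISRE core, shown in capitals. Those of Irf1, which moved in opposite directions in the 2 genotypes, are printed with its GAS core in capitals. These 5 were not the 5 with the largest rises on induction. Ifitm1, which rose most in KO, had no ISRE core in its window. The printed bases run 5′ to 3′ on the strand of the gene, and a core on the other strand reads TTTC, any 2 bases and TTTC. They come from Isg15 (GRCm38.p6 chr4:156200819-156200978, minus strand), Ifit1 (chr19:34640729-34640888, plus strand), Ifit3 (chr19:34583369-34583528, plus strand), Bst2 (chr8:71537473-71537632, minus strand), Gbp3 (chr3:142559884-142560043, plus strand) and Irf1 (chr11:53769854-53770013, plus strand).
Isg15: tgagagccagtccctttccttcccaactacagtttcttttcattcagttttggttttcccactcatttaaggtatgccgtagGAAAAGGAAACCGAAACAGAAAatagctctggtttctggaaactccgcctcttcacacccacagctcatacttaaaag
Ifit1: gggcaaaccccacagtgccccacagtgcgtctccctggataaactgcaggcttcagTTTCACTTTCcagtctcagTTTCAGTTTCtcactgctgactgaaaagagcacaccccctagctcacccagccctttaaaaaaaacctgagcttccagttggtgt
Ifit3: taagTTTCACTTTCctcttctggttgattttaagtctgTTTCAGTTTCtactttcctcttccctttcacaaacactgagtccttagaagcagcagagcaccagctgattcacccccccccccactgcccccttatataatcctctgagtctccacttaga
Bst2: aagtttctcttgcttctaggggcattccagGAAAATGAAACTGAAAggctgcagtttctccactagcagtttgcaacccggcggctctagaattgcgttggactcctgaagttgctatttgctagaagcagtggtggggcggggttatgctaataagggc
Gbp3: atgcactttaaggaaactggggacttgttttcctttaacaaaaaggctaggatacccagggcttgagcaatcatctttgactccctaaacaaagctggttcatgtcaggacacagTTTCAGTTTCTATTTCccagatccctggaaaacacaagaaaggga
Irf1: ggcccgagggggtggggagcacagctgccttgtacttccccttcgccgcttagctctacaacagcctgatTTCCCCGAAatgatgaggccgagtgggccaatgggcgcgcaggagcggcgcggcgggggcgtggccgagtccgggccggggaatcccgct
In Isg15 overlapping cores began 78, 72 and 66 bases before the start. Ifit1 held separate cores that began at 104 and 85 bases, as Ifit3 did at 156 and 122 bases. The Bst2 cores began 130 and 124 bases before the start, those of Gbp3 45 and 39 bases, and the GAS core of Irf1 began 90 bases before it. A match describes the letters only and does not show that a factor bound there.

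Dnmt3l RNA was detected in WT and not in KO libraries. Its level was 1.56 and 1.09 RPKM in undifferentiated WT, 0.845 and 0.830 RPKM in differentiating WT, and 0 in each of the 4 KO libraries. The study reports that the Dnmt3l reads of WT MSCs covered only the later exons. It could not detect the canonical DNMT3L protein in cultured MSCs. The steps between low values correspond to about 48300000 to 66800000 scaled reads per library, with replicate 1 of differentiating WT the deepest, so that 3 reads give 0.0113 to 0.0156 RPKM for Rsad2 and 0.0659 to 0.0912 RPKM for Ifitm1. Such floors cover counting error only. Markers of mesenchymal stromal cells (10 genes) summed to 1770 and 1653 RPKM in undifferentiated WT, 2015 and 2070 in undifferentiated KO, 1692 and 1569 in differentiating WT and 1198 and 1209 in differentiating KO, where 6 of the 10 passed as lower than in differentiating WT and 3 as higher. Of 6 osteoblast markers, Ibsp, which encodes bone sialoprotein, was the only 1 to rise on induction in either genotype, while 2 fell in WT and 3 in KO, and 5 were lower in differentiating KO than in differentiating WT. In whole cultures, fewer cells of a type and less RNA per cell cannot be told apart.

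By their median, the 43 tested genes had a low level in undifferentiated MSCs, lower in KO than in WT, and a high level after 3 days of induction in both genotypes, with an unequal level between the libraries of each differentiating group. Each gene was centred on its mean log2(RPKM + 0.1) over the 8 libraries. The median over the 43 genes was -0.62 and -0.63 in undifferentiated WT, -1.23 and -1.12 in undifferentiated KO, 0.65 and 1.07 in differentiating WT, and 1.25 and 0.49 in differentiating KO, in the order replicate 1 and replicate 2. The differentiating KO libraries therefore took the highest and the lowest place among the 4 differentiating libraries, and the WT libraries lay between them. Over all 15342 genes the same median lay between -0.0048 and 0.0033.

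**Figure D1:**
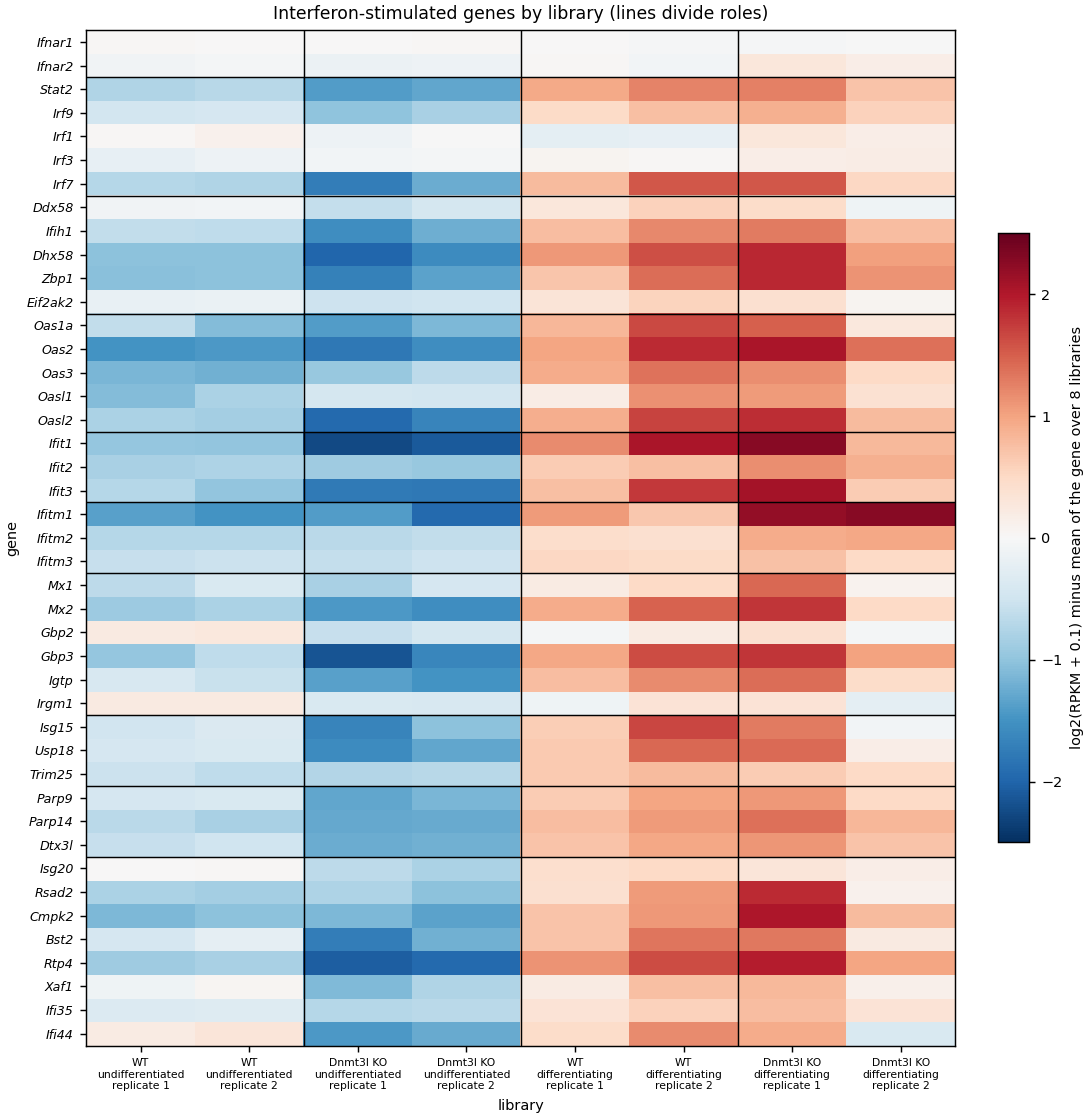
Heat map of the 43 tested interferon-stimulated genes (rows, divided by role) in the 8 libraries (columns). Colour gives log2(RPKM + 0.1) minus the mean of the gene over the 8 libraries; the undifferentiated KO columns are the bluest, with medians of -1.23 and -1.12, and replicate 1 of differentiating KO is the reddest, with a median of 1.25.

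**Figure D2:**
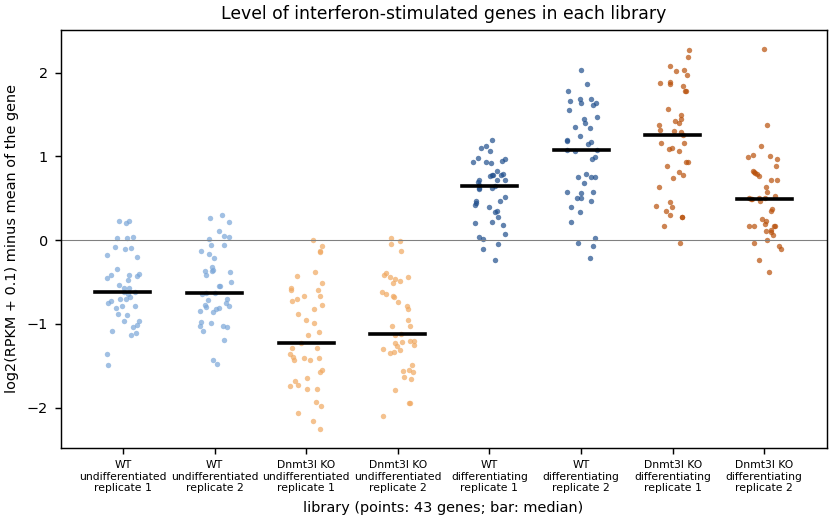
Level of the 43 genes in each library, as log2(RPKM + 0.1) minus the mean of the gene; each point is a gene and the bar is the median. Medians were -0.62 and -0.63 in undifferentiated WT, -1.23 and -1.12 in undifferentiated KO, 0.65 and 1.07 in differentiating WT, and 1.25 and 0.49 in differentiating KO.

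Comparisons used limma on log2(RPKM + 0.1) with Benjamini-Hochberg adjustment over all 15342 genes. A gene passed at an adjusted p under 0.05 and was a differentially expressed gene (DEG) when it also differed more than 2-fold. Fold changes on this scale understate the change of genes near 0.1 RPKM, such as Oas2, Oasl1, Mx1 and Rsad2. In undifferentiated MSCs, 9 of the 43 genes were lower in KO and 0 higher among those that passed, against 17.5% of all genes lower and 14.7% higher; 2 were DEGs with lower levels and 0 with higher levels, against 1.09% and 0.613% of all genes. In differentiating MSCs, 6 genes were higher in KO and 1 lower, against 17.8% and 22.9%, with 1 DEG higher and 0 lower, against 1.36% and 1.95%. Induction raised 33 genes in WT and 41 in KO, against 31.6% and 36.4% of all genes, and lowered 1 and 0, against 32.8% and 36.6%. DEGs that rose numbered 29 in WT and 34 in KO, against 9.69% and 13.0% of all genes, and DEGs that fell numbered 0 in each, against 4.63% and 9.87%. The interaction term, which compares the change on induction between the genotypes, was higher in KO for 8 genes and lower for 0, against 19.4% and 20.0%, with 1 DEG higher and 0 lower, against 2.76% and 3.42%. At an unadjusted p under 0.05 the counts of higher and lower genes were 1 and 20 for genotype in undifferentiated MSCs, 6 and 1 for genotype in differentiating MSCs, 35 and 1 for induction in WT, 41 and 0 for induction in KO, and 13 and 0 for the interaction. The share of all genes at that limit was not counted, so the unadjusted counts cannot be set against a background. DEGs that rose on induction made up 67.4% of the 43 genes in WT and 79.1% in KO, whereas the 20.9% that passed as lower in undifferentiated KO was near the 17.5% of all genes.

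Values below are RPKM with replicate 1 of each group given first. Receptor chains stand first in the pathway. Ifnar1, a chain of the type I interferon receptor, was measured at 15.6 and 15.4 RPKM in undifferentiated WT, 15.3 and 15.6 in undifferentiated KO, 15.4 and 15.0 in differentiating WT and 14.9 and 15.3 in differentiating KO. Ifnar2, the chain that binds interferon most tightly, was measured at 33.3 and 34.1 RPKM in undifferentiated WT, 32.2 and 32.4 in undifferentiated KO, 36.4 and 33.6 in differentiating WT and 43.0 and 39.7 in differentiating KO. The Ifnar1 level stayed between 14.9 and 15.6 RPKM in every library and passed in none of the comparisons. Ifnar2 rose on induction in KO (log2 fold change 0.35 ± 0.05, SE, adjusted p = 0.00114) and was higher in differentiating KO than in differentiating WT, without overlap, at 0.24 ± 0.05 on the log2 scale (adjusted p = 0.0152). In WT the log2 fold change on induction was 0.05 ± 0.05 (adjusted p = 0.409).

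STAT2 and IRF9 are the subunits of ISGF3 that give it DNA binding and a transactivation domain. Stat2 was measured at 5.19 and 5.37 RPKM in undifferentiated WT, 3.27 and 3.49 in undifferentiated KO, 17.0 and 21.0 in differentiating WT and 21.1 and 14.6 in differentiating KO. Irf9 was measured at 13.7 and 14.0 RPKM in undifferentiated WT, 9.32 and 10.6 in undifferentiated KO, 25.9 and 31.6 in differentiating WT and 34.5 and 27.8 in differentiating KO. Both were lower in undifferentiated KO than in undifferentiated WT without overlap, and each was higher in replicate 1 than in replicate 2 of differentiating KO. The KO difference in undifferentiated MSCs was a log2 fold change of -0.63 ± 0.18 for Stat2 (adjusted p = 0.0432) and -0.48 ± 0.14 for Irf9 (adjusted p = 0.0419). On induction Stat2 rose by 1.82 ± 0.18 in WT and 2.34 ± 0.18 in KO, and Irf9 by 1.05 ± 0.14 and 1.63 ± 0.14, all on the log2 scale. In differentiating MSCs their KO and WT libraries overlapped.

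IRF1, IRF3 and IRF7 are transcription factors that act on interferon genes and on interferon targets, IRF3 being expressed at a steady level in most cells and IRF7 being induced by interferon. Irf1 was measured at 11.0 and 11.6 RPKM in undifferentiated WT, 9.84 and 10.6 in undifferentiated KO, 9.09 and 9.27 in differentiating WT and 13.0 and 12.1 in differentiating KO. It fell on induction in WT by 0.30 on the log2 scale (SE 0.06, adjusted p = 0.00429), rose in KO by 0.30 ± 0.06 (adjusted p = 0.00356), and was higher in differentiating KO than WT by 0.45 ± 0.06 (adjusted p = 0.00265). Irf3 was measured at 14.6 and 15.2 RPKM in undifferentiated WT, 15.9 and 16.3 in undifferentiated KO, 17.6 and 17.1 in differentiating WT and 18.8 and 19.1 in differentiating KO. It rose by 0.22 ± 0.04 in WT and 0.24 ± 0.04 in KO and was higher in differentiating KO by 0.13 ± 0.04 (log2, adjusted p = 0.0326). For Irf3 this genotype difference did not pass in a limma fit of the differentiating libraries alone (adjusted p = 0.0776). Irf7 was measured at 4.27 and 4.12 RPKM in undifferentiated WT, 2.04 and 2.93 in undifferentiated KO, 12.2 and 20.8 in differentiating WT and 20.9 and 10.1 in differentiating KO. Its induction passed in both genotypes, at log2 fold changes of 1.90 ± 0.40 and 2.53 ± 0.40, although the libraries of each differentiating group lay far apart.

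Sensors of foreign nucleic acid include the RIG-I-like helicases, encoded by Ddx58, Ifih1 and Dhx58, and ZBP1, a sensor of left-handed nucleic acid. Ifih1 (MDA5) was measured at 2.94 and 2.93 RPKM in undifferentiated WT, 1.49 and 1.91 in undifferentiated KO, 7.94 and 10.6 in differentiating WT and 11.4 and 7.88 in differentiating KO. Dhx58 (LGP2) was measured at 1.67 and 1.65 RPKM in undifferentiated WT, 0.807 and 1.10 in undifferentiated KO, 7.54 and 10.9 in differentiating WT and 13.0 and 7.16 in differentiating KO. Zbp1 was measured at 2.48 and 2.50 RPKM in undifferentiated WT, 1.55 and 2.00 in undifferentiated KO, 8.49 and 13.9 in differentiating WT and 19.6 and 11.4 in differentiating KO. All 3 were lowest in undifferentiated KO and several-fold higher in every differentiating library. Ifih1 was lower in undifferentiated KO at -0.76 ± 0.22 on the log2 scale (adjusted p = 0.0445), whereas Dhx58 gave -0.75 ± 0.32 with a larger SE and an adjusted p of 0.121 in the same limma fit. On induction in KO the log2 fold changes were 2.42 ± 0.22 for Ifih1, 3.22 ± 0.32 for Dhx58 and 3.01 ± 0.32 for Zbp1. The other sensors, Ddx58 (RIG-I) and the double-stranded RNA kinase gene Eif2ak2, ranged from 10.7 to 24.1 RPKM and from 15.6 to 33.0 RPKM, and their changes on induction stayed within 2-fold.

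The OAS enzymes make 2′-5′-linked oligoadenylate, which activates the ribonuclease RNase L, and OAS-like 1 lacks that activity. Their 6 listed genes lie on chromosome 5. Oas1a was measured at 0.580 and 0.393 RPKM in undifferentiated WT, 0.295 and 0.383 in undifferentiated KO, 1.76 and 3.21 in differentiating WT and 2.84 and 1.15 in differentiating KO. Oas2 was measured at 0.0222 and 0.0266 RPKM in undifferentiated WT, 0 and 0.0165 in undifferentiated KO, 0.577 and 1.15 in differentiating WT and 1.31 and 0.788 in differentiating KO. Oas3 was measured at 0.324 and 0.306 RPKM in undifferentiated WT, 0.381 and 0.495 in undifferentiated KO, 1.68 and 2.28 in differentiating WT and 1.98 and 1.21 in differentiating KO. The 3 genes were under 1 RPKM in undifferentiated MSCs and rose on induction in both genotypes, by log2 fold changes of 2.10 ± 0.46, 2.89 ± 0.35 and 2.31 ± 0.25 in WT. Oasl1 was measured at 0.0741 and 0.112 RPKM in undifferentiated WT, 0.173 and 0.168 in undifferentiated KO, 0.318 and 0.718 in differentiating WT and 0.671 and 0.378 in differentiating KO. Oasl2 was measured at 1.93 and 1.85 RPKM in undifferentiated WT, 0.813 and 1.01 in undifferentiated KO, 6.50 and 11.2 in differentiating WT and 12.5 and 5.93 in differentiating KO. Oas3 and Oasl1 were among the few listed genes with higher values in undifferentiated KO than in WT, with log2 fold changes of 0.37 ± 0.25 (adjusted p = 0.315) and 0.49 ± 0.37 (adjusted p = 0.353) that did not pass in limma. Of the 50-base words in Oas1a transcripts, the length of a read, 57.6% also occur in another gene, mainly Oas1g, so that the division of reads between the pair is uncertain. Oas1g itself was measured at 0.0225 and 0.0108 RPKM in undifferentiated WT, 0 and 0.0324 in undifferentiated KO, 0.0958 and 0.116 in differentiating WT and 0.226 and 0.0541 in differentiating KO, within 3 reads in 4 libraries, and was not tested.

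IFIT proteins bind foreign RNA ends and limit its translation. The genes lie together on chromosome 19. Ifit1 was measured at 4.83 and 4.74 RPKM in undifferentiated WT, 1.92 and 2.13 in undifferentiated KO, 21.8 and 39.1 in differentiating WT and 46.1 and 16.7 in differentiating KO. Ifit2 was measured at 3.63 and 3.71 RPKM in undifferentiated WT, 3.43 and 3.27 in undifferentiated KO, 9.98 and 10.9 in differentiating WT and 14.5 and 12.0 in differentiating KO. Ifit3 was measured at 2.80 and 2.29 RPKM in undifferentiated WT, 1.28 and 1.27 in undifferentiated KO, 7.91 and 16.1 in differentiating WT and 19.9 and 7.24 in differentiating KO. Ifit1 and Ifit3 showed the wide split between the differentiating KO libraries, 46.1 against 16.7 RPKM and 19.9 against 7.24 RPKM, whereas Ifit2 stayed at 14.5 and 12.0 RPKM. Ifit1 rose on induction by a log2 fold change of 2.58 ± 0.49 in WT and 3.71 ± 0.49 in KO. Ifit2 rose by 1.48 ± 0.10 in WT and 1.94 ± 0.10 in KO, and was higher in differentiating KO than in WT by 0.33 ± 0.10 (adjusted p = 0.0370). That genotype difference did not pass in a limma fit of the differentiating libraries alone (adjusted p = 0.130). Of the 50-base words of Ifit3, 51.2% occur in another gene, mainly Ifit3b.

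IFITM proteins are small membrane proteins that hinder entry of enveloped viruses, and Ifitm2 and Ifitm3 had the highest levels per length of the 44 genes. Ifitm1 was measured at 0.862 and 0.784 RPKM in undifferentiated WT, 0.834 and 0.542 in undifferentiated KO, 5.06 and 3.86 in differentiating WT and 11.2 and 11.9 in differentiating KO. Ifitm2 was measured at 304 and 304 RPKM in undifferentiated WT, 315 and 326 in undifferentiated KO, 679 and 657 in differentiating WT and 954 and 980.0 in differentiating KO. Ifitm3 was measured at 304 and 309.7 RPKM in undifferentiated WT, 299.9 and 318 in undifferentiated KO, 645 and 626 in differentiating WT and 753 and 637 in differentiating KO. The differentiating KO libraries of Ifitm1 and Ifitm2 lay close together, and both genes were higher in both differentiating KO libraries than in both WT libraries. Ifitm1 was the only DEG of the 43 between genotypes in differentiating MSCs, at a log2 fold change of 1.37 ± 0.20 (adjusted p = 0.00424), or 2.58-fold higher in KO. It rose 4.90-fold in WT and 15.0-fold in KO, and the interaction term of 1.62 ± 0.29 passed (adjusted p = 0.00740). Ifitm2 was higher in differentiating KO by 0.53 ± 0.04 on the log2 scale (adjusted p = 8.49e-04), and Ifitm3 gave 0.12 ± 0.08 (adjusted p = 0.274). Of the 50-base words of Ifitm2, 48.5% occur in another gene model, Gm45717.

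The interferon-inducible GTPases comprise the MX proteins, the guanylate-binding proteins and the immunity-related GTPases, which act on viral particles and on the vacuoles of intracellular microbes. Mx1 was measured at 0.0408 and 0.0703 RPKM in undifferentiated WT, 0.0249 and 0.0646 in undifferentiated KO, 0.155 and 0.213 in differentiating WT and 0.499 and 0.135 in differentiating KO. Mx2 was measured at 0.302 and 0.334 RPKM in undifferentiated WT, 0.178 and 0.154 in undifferentiated KO, 1.33 and 1.99 in differentiating WT and 2.49 and 0.964 in differentiating KO. Both were highest in replicate 1 of differentiating KO. GENCODE vM21 labels Mx2 a polymorphic pseudogene, and these RNA levels do not show that MX proteins were made. Gbp3 was measured at 3.19 and 4.02 RPKM in undifferentiated WT, 1.34 and 1.97 in undifferentiated KO, 12.5 and 19.9 in differentiating WT and 22.0 and 12.8 in differentiating KO. Igtp (Irgm3) was measured at 2.73 and 2.46 RPKM in undifferentiated WT, 1.36 and 1.23 in undifferentiated KO, 6.31 and 8.34 in differentiating WT and 9.78 and 5.07 in differentiating KO. Gbp3 and Igtp were lower in both undifferentiated KO libraries than in both WT libraries, with log2 fold changes of -1.09 ± 0.35 (adjusted p = 0.0581) and -0.95 ± 0.30 (adjusted p = 0.0577) that did not pass in limma, and both rose on induction, Gbp3 4.31-fold in WT and 9.77-fold in KO. Gbp2, singled out after its values were seen, was measured at 25.9 and 26.5 RPKM in undifferentiated WT, 14.8 and 16.3 in undifferentiated KO, 21.3 and 25.5 in differentiating WT and 29.0 and 21.5 in differentiating KO. It was lower in undifferentiated KO by -0.75 ± 0.15 (log2, adjusted p = 0.0150), rose on induction in KO by 0.68 ± 0.15 (adjusted p = 0.00722), and gave -0.17 ± 0.15 in WT (adjusted p = 0.377), so that the 4 differentiating libraries and the WT undifferentiated libraries lay between 21.3 and 29.0 RPKM. Irgm1 ranged from 21.4 to 35.9 RPKM and passed in no comparison.

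ISG15 is a ubiquitin-like protein attached to other proteins; USP18 removes it and dampens IFNAR2 signalling, and TRIM25 is a ubiquitin ligase that acts on RIG-I. Isg15 was measured at 8.80 and 9.56 RPKM in undifferentiated WT, 3.83 and 5.95 in undifferentiated KO, 18.7 and 39.4 in differentiating WT and 30.1 and 11.7 in differentiating KO. Usp18 was measured at 3.36 and 3.44 RPKM in undifferentiated WT, 1.45 and 1.79 in undifferentiated KO, 7.15 and 12.5 in differentiating WT and 12.3 and 5.11 in differentiating KO. Trim25 was measured at 3.68 and 3.44 RPKM in undifferentiated WT, 3.22 and 3.31 in undifferentiated KO, 8.57 and 9.35 in differentiating WT and 8.39 and 7.70 in differentiating KO. For Isg15 and Usp18 the libraries of each differentiating group lay far apart, whereas those of Trim25 lay close together. The rise on induction passed for each in both genotypes, with log2 fold changes in WT of 1.56 ± 0.53 (adjusted p = 0.0426), 1.45 ± 0.44 (adjusted p = 0.0275) and 1.31 ± 0.07 (adjusted p = 1.88e-05). In undifferentiated MSCs the KO values of Isg15 lay below the WT values, at a log2 fold change of -0.93 ± 0.53 that did not pass in limma (adjusted p = 0.234).

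PARP9 and DTX3L form a complex of an ADP-ribosyltransferase and a ubiquitin ligase, and PARP14 is a related transferase. Their genes adjoin on chromosome 16. Parp9 was measured at 10.2 and 10.5 RPKM in undifferentiated WT, 5.51 and 6.14 in undifferentiated KO, 21.1 and 27.3 in differentiating WT and 29.1 and 19.4 in differentiating KO. Parp14 was measured at 1.94 and 1.76 RPKM in undifferentiated WT, 1.24 and 1.26 in undifferentiated KO, 5.48 and 6.78 in differentiating WT and 8.36 and 5.69 in differentiating KO. Dtx3l was measured at 4.20 and 4.41 RPKM in undifferentiated WT, 2.62 and 2.68 in undifferentiated KO, 10.4 and 12.4 in differentiating WT and 13.6 and 10.4 in differentiating KO. Each was lower in both undifferentiated KO libraries, and the difference passed for Parp9 (-0.82 ± 0.21, adjusted p = 0.0296) and Dtx3l (-0.68 ± 0.14, adjusted p = 0.0143), on the log2 scale. All 3 were DEGs on induction in both genotypes. The interaction term passed for Dtx3l, at 0.75 ± 0.19 (adjusted p = 0.0261).

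The remaining genes encode other effectors. Rsad2 (viperin) makes a chain-terminating nucleotide, and Cmpk2, its neighbour on chromosome 12, is a mitochondrial nucleotide kinase. Rsad2 was measured at 0.0908 and 0.0816 RPKM in undifferentiated WT, 0.0926 and 0.0619 in undifferentiated KO, 0.333 and 0.586 in differentiating WT and 1.10 and 0.253 in differentiating KO. Cmpk2 was measured at 0.184 and 0.202 RPKM in undifferentiated WT, 0.180 and 0.142 in undifferentiated KO, 0.912 and 1.20 in differentiating WT and 2.40 and 0.966 in differentiating KO. Both were near the pseudocount in undifferentiated MSCs and highest in replicate 1 of differentiating KO. Bst2 (tetherin), which holds budding virions at the cell surface, was measured at 39.2 and 45.4 RPKM in undifferentiated WT, 15.9 and 22.8 in undifferentiated KO, 86.7 and 133 in differentiating WT and 131 and 61.6 in differentiating KO. Rtp4, a chaperone of membrane receptors, was measured at 3.77 and 3.94 RPKM in undifferentiated WT, 1.60 and 1.75 in undifferentiated KO, 15.4 and 22.1 in differentiating WT and 27.7 and 14.1 in differentiating KO. Rtp4 was a DEG in undifferentiated MSCs, at -1.16 ± 0.32 on the log2 scale for KO against WT (adjusted p = 0.0398), or 2.23-fold lower in KO, whereas Bst2, with nearly the same log2 fold change of -1.14 ± 0.40, gave an adjusted p of 0.0743 in limma. Ifi44, whose product is known as an interferon-induced protein of the cytoplasm, was measured at 4.83 and 5.18 RPKM in undifferentiated WT, 1.49 and 1.70 in undifferentiated KO, 5.81 and 9.64 in differentiating WT and 8.08 and 3.19 in differentiating KO. It was the other DEG, lower in undifferentiated KO by -1.60 ± 0.44 (adjusted p = 0.0382), or 3.02-fold, and it rose on induction in KO by 1.62 ± 0.44 (adjusted p = 0.0157) against 0.57 ± 0.44 in WT (adjusted p = 0.295). The interaction term of Ifi44, 1.05 ± 0.62, did not pass in limma (adjusted p = 0.232).

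Xaf1, which encodes a partner of the apoptosis inhibitor XIAP, was measured at 5.41 and 6.04 RPKM in undifferentiated WT, 2.67 and 3.44 in undifferentiated KO, 6.73 and 9.84 in differentiating WT and 10.3 and 6.34 in differentiating KO. Ifi35, whose product pairs with NMI, was measured at 19.3 and 19.7 RPKM in undifferentiated WT, 15.0 and 15.4 in undifferentiated KO, 31.4 and 36.7 in differentiating WT and 42.3 and 31.2 in differentiating KO. Both were DEGs on induction in KO and not in WT, and the interaction terms of 0.88 ± 0.40 and 0.45 ± 0.20 did not pass in limma (adjusted p = 0.128 and 0.131). Isg20, a 3′-5′ exonuclease gene singled out after its values were seen, was measured at 9.62 and 9.72 RPKM in undifferentiated WT, 5.96 and 5.46 in undifferentiated KO, 12.8 and 13.5 in differentiating WT and 11.7 and 10.7 in differentiating KO. It was lower in KO in both states, by -0.75 ± 0.06 in undifferentiated MSCs (adjusted p = 0.00105) and -0.23 ± 0.06 in differentiating MSCs (adjusted p = 0.0322), and was the only 1 of the 43 genes to pass as lower in differentiating KO. That call was lost when either library of undifferentiated WT, either library of differentiating WT or replicate 2 of differentiating KO was left out.

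In undifferentiated MSCs most of the genes had lower values in KO, and few of these differences passed the test. The log2 fold change, KO against WT, was negative in 38 of the 43 genes, with a median of -0.53, or 1.44-fold lower, whereas the median over all genes was -0.0027. Both KO values lay under both WT values for 34 genes and above them for 4, against 36.9% and 34.8% of all genes. The 9 genes that passed were Stat2, Irf9, Ifih1, Gbp2, Parp9, Dtx3l, Isg20, Rtp4 and Ifi44, with log2 fold changes from -1.60 to -0.48. In the limma fit of all 8 libraries, these differences were set against a spread to which the split differentiating libraries contributed. The count of 9 depended on single libraries and on settings. When any 1 of the 4 undifferentiated libraries was left out, 1 gene passed, Isg20, against 8.42% to 10.7% of all genes that passed as lower in those fits. The count was 4 with a pseudocount of 1, without the limit on low values or without the variance trend. In these settings 17%, 12.7% and 16.1% of all genes passed as lower. The differentiating libraries do not enter these fold changes, so leaving out any 1 of them left the median at -0.53 by construction. In a fit of the 4 undifferentiated libraries alone, 22 genes passed as lower, against 17.4% of all genes, and 5 were DEGs, against 1.08%, namely Ifi44, Ifit1, Rtp4, Bst2 and Usp18. Neither Ifi44 nor Rtp4 was a DEG when any 1 of the undifferentiated or of the differentiating WT libraries was left out, when 0.1 was replaced by a pseudocount of 1, or without the limit on low values.

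**Figure D3:**
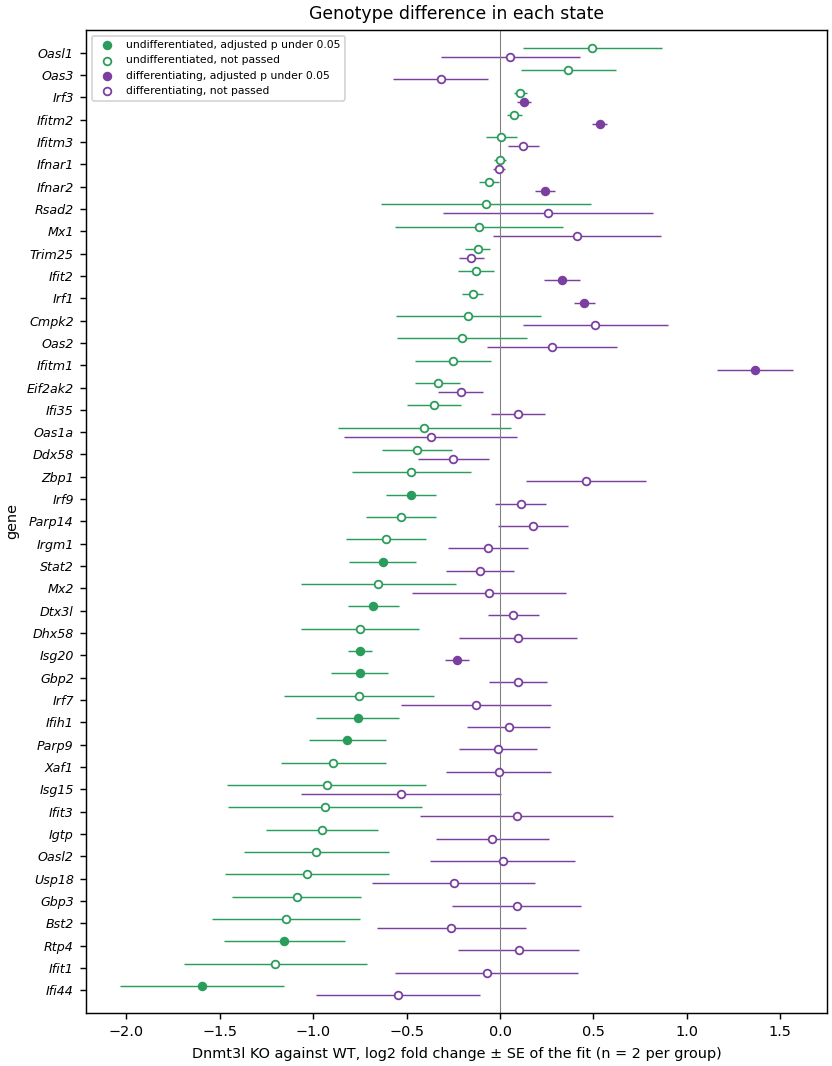
KO against WT log2 fold change of each gene in undifferentiated (green) and differentiating (purple) MSCs, with the SE of the fit; filled points passed at an adjusted p under 0.05. The green points lie left of 0 for 38 of 43 genes, with a median of -0.53, and the purple points lie on both sides, with a median of 0.05.

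Markers of macrophages and other leukocytes moved with this genotype difference. Their 14 genes in the table summed to 23.5 and 24.2 RPKM in undifferentiated WT, 11.2 and 10.3 in undifferentiated KO, 39.7 and 46.2 in differentiating WT, and 14.7 and 16.3 in differentiating KO. Of the 13 that were tested, 8 passed as lower and 2 as higher in undifferentiated KO, against 17.5% and 14.7% of all genes. In differentiating KO 11 passed as lower and 1 as higher, against 22.9% and 17.8%. Ptprc, which encodes the leukocyte antigen CD45, was at 0.127 and 0.0979 RPKM in undifferentiated WT and 0.0698 and 0.0243 in undifferentiated KO, and the macrophage gene Lyz2 was at 12.8 and 13.4 against 3.43 and 3.19 RPKM. Lyz2 thus made up much of the marker sum in undifferentiated WT and of its difference from undifferentiated KO. In differentiating MSCs the marker sum was lower in KO while the interferon-stimulated genes had a median log2 fold change of 0.05 between the genotypes. Plasmacytoid dendritic cell markers (5 genes) summed to 17.9 to 22.5 RPKM, nearly all of it Tcf4, with Flt3 at 0 in every library. The part of leukocytes in the difference between the genotypes was not tested.

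In differentiating MSCs the genotype comparison depended on single libraries. Its log2 fold change was positive in 24 and negative in 19 of the 43 genes, with a median of 0.05. Both KO values lay above both WT values for 6 genes and under them for 2, against 33.8% and 37.1% of all genes. The 6 genes that passed as higher in KO were Ifnar2, Irf1, Irf3, Ifit2, Ifitm1 and Ifitm2. They are 14.0% of the 43 genes, against 17.8% of all genes. In a fit of the 4 differentiating libraries alone, 3 genes passed as higher, against 9.76% of all genes, and 0 as lower, against 10%. The 3 were Irf1, Ifitm1 and Ifitm2. Ifnar2, Irf3 and Ifit2 did not pass in that limma fit, at adjusted p of 0.0812, 0.0776 and 0.130. Without replicate 1 of differentiating KO the fold change was positive in 9 of the 43 genes, with a median of -0.30, and Ifi44 became a DEG with a lower level in KO. Without replicate 2 of the same group it was positive in 39, with a median of 0.34, and Cmpk2 and Mx1 became DEGs with higher levels. Leaving out replicate 1 or replicate 2 of differentiating WT gave 12 and 36 positive values. Ifitm1 was a DEG in each of these fits, with log2 fold changes of 1.17 to 1.56.

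The split between libraries was shared by most of the genes. In differentiating WT the level was higher in replicate 2 for 37 of the 43 genes, with a median log2 difference of 0.40, and in differentiating KO it was lower in replicate 2 for 39, with a median of -0.66. The medians in undifferentiated WT and KO were 0.03 and 0.11. Over all genes, 49.0% were higher in replicate 2 of differentiating WT and 55.7% lower in replicate 2 of differentiating KO, with medians of 0 and -0.02. More than 0.5 log2 units separated the libraries for 18 of the 43 genes in WT and 28 in KO, against 4.26% and 6.05% of all genes. A wider list of 58 other interferon-inducible genes had the same directions, with 53 higher in replicate 2 of differentiating WT and 54 lower in replicate 2 of differentiating KO, at medians of 0.23 and -0.43. The 16 tested genes for interferon ligands, receptors and JAK-STAT factors had medians of 0.03 and 0.01. The leukocyte marker sum was higher in replicate 2 of both differentiating groups. The cause of the split was not tested.

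**Figure D4:**
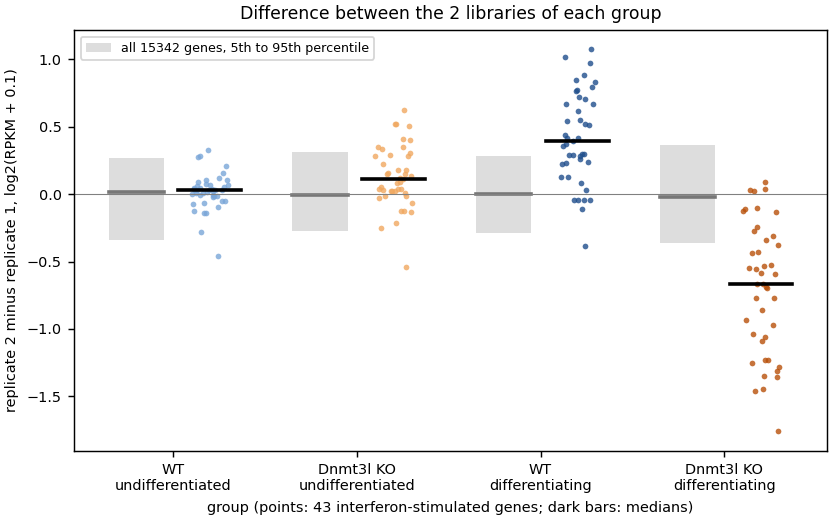
Replicate 2 minus replicate 1 on the log2(RPKM + 0.1) scale in each group. Points are the 43 genes with their median as a black bar, and grey boxes span the 5th to the 95th percentile of all 15342 genes with their median in dark grey; the medians of the 43 genes are 0.03 and 0.11 in undifferentiated WT and KO, 0.40 in differentiating WT and -0.66 in differentiating KO.

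Induction gave the largest differences. In WT the log2 fold change was positive in 39 of the 43 genes, with a median of 1.45 (2.73-fold), and in KO in 42, with a median of 1.95 (3.87-fold), beside medians of 0.00 over all genes. Both differentiating values lay above both undifferentiated values for 38 genes in WT and 42 in KO, against 41.5% and 42.5% of all genes, and under them for 2 and 1, against 41.9% and 42.8%. The largest log2 fold changes in WT were those of Oas2 (2.89 ± 0.35), Ifit1 (2.58 ± 0.49), Dhx58 (2.38 ± 0.32) and Oas3 (2.31 ± 0.25), and in KO those of Ifitm1 (3.91 ± 0.20), Ifit1 (3.71 ± 0.49), Rtp4 (3.48 ± 0.32) and Oas2 (3.37 ± 0.35). Genes that did not pass in WT were Ifnar1, Ifnar2, Ddx58, Mx1, Gbp2, Irgm1, Rsad2, Xaf1 and Ifi44, and in KO only Ifnar1 and Irgm1 did not. Markers of other cell types also moved on induction. Endothelial markers (5 genes) summed to 0.719 and 0.843 RPKM in undifferentiated WT, 3.11 and 2.63 in differentiating WT, 0.563 and 0.537 in undifferentiated KO and 4.12 and 4.65 in differentiating KO, and both that were tested were DEGs that rose in each genotype. Of the 13 tested leukocyte markers, 10 rose and 2 fell in WT, against 31.6% and 32.8% of all genes. In KO 4 rose and 2 fell, against 36.4% and 36.6%. The part of these cells in the change on induction was not tested. Since the undifferentiated cultures had 20% serum and no dexamethasone, the effects of medium, time and differentiation cannot be told apart. The 17 tested genes with an ISRE core in the promoter window had a median log2 fold change of 1.55 in WT and 1.95 in KO. The 17 whose windows held none had 1.05 and 1.39. The ranges overlapped, in WT from -0.17 to 2.58 with a core and from -0.30 to 2.29 without. In KO they ran from 0.44 to 3.71 with a core and from -0.03 to 3.91 without. The 9 genes without a promoter entry were in neither set.

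**Figure D5:**
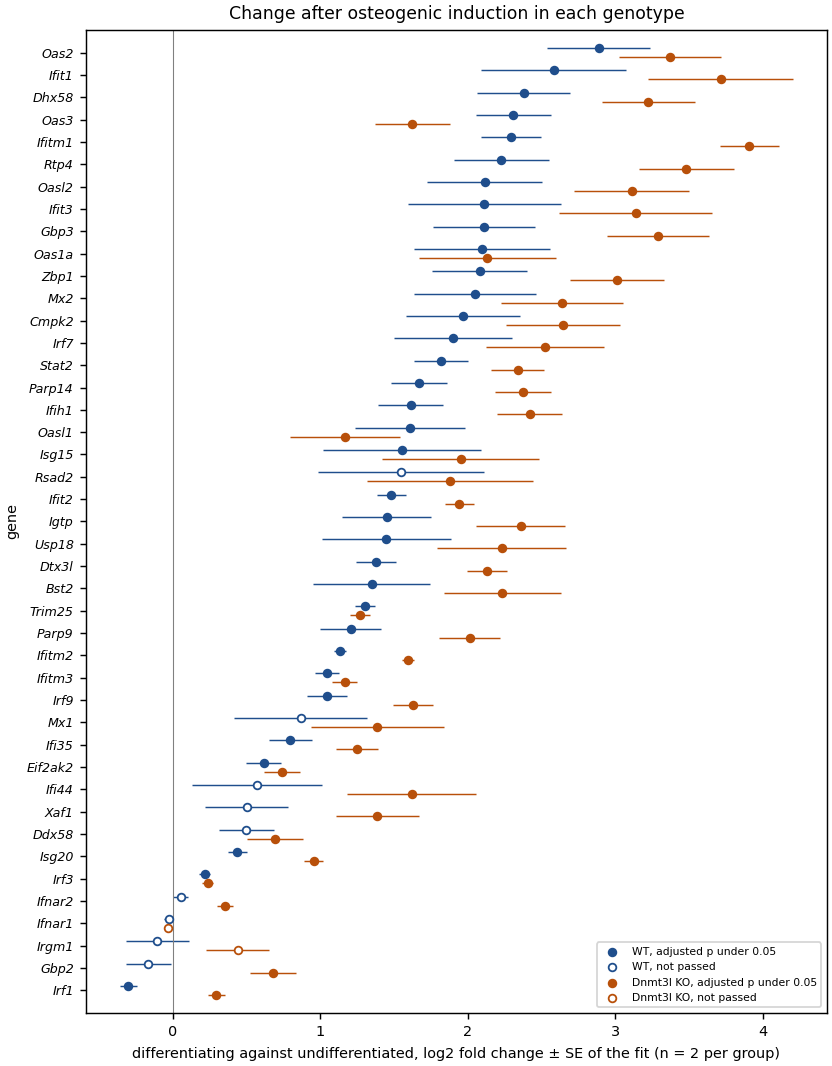
Log2 fold change on induction, differentiating against undifferentiated, of each gene in WT (blue) and KO (orange), with the SE of the fit; filled points passed at an adjusted p under 0.05. Most points lie right of 0, with medians of 1.45 in WT and 1.95 in KO.

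The change on induction was compared between the genotypes by the interaction term of the same fit. Its median over the 43 genes was 0.59, beside -0.0070 over all genes, and it was positive in 39. It passed for 8 genes, all with the more positive change in KO: Ifitm1, Gbp2, Dtx3l, Irf1, Isg20, Ifit2, Ifitm2 and Ifnar2. These are 18.6% of the 43 genes, near the 19.4% of all genes that passed in this direction. Since the undifferentiated KO libraries enter both this term and the comparison above, the values are not independent of it. When any 1 of the 4 undifferentiated libraries was left out 4 genes passed, Ifitm1, Ifitm2, Irf1 and Isg20, against 14.0% to 14.8% of all genes in this direction. Without replicate 1 or replicate 2 of differentiating WT the median of the term was 0.44 and 0.86. Without replicate 2 of differentiating KO, 24 genes passed as higher, against 18.5% of all genes, and 12 were DEGs, against 2.70%. Without replicate 1 of that group 8 passed as higher, against 18.6% of all genes, and 1, Oas3, as lower, against 22.7%.

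Upstream of these genes, transcripts of the interferons themselves were at or near 0. Ifnb1, the gene for interferon β, was at 0.108 RPKM in replicate 1 of undifferentiated WT and at 0 in the other 7 libraries, and Ifng, for interferon γ, was at 0 in all 8. Of 30 listed ligand, receptor and JAK-STAT genes, 16 passed the limit on low values. In undifferentiated KO 1 of them was higher and 5 lower, against 14.7% and 17.5% of all genes, and in differentiating KO 5 were higher and 2 lower, against 17.8% and 22.9%. On induction 8 rose and 3 fell in WT, against 31.6% and 32.8% of all genes, and 11 rose and 3 fell in KO, against 36.4% and 36.6%. Ifngr1, the ligand-binding chain of the interferon γ receptor, was at 31.0 and 32.2 RPKM in undifferentiated WT, 27.7 and 29.0 in undifferentiated KO, 65.2 and 60.1 in differentiating WT and 100.1 and 111 in differentiating KO, and was higher in differentiating KO by 0.75 ± 0.06 (adjusted p = 0.00101) with no overlap. Ifngr2, its partner chain, was lower in KO in both states, by -0.20 ± 0.05 (adjusted p = 0.0192) and -0.28 ± 0.05 (adjusted p = 0.00547). The kinase genes Jak1 and Tyk2 gave no genotype difference that passed, with log2 fold changes of 0.06 ± 0.03 and -0.01 ± 0.05 in undifferentiated MSCs and 0.05 ± 0.03 and 0.15 ± 0.05 in differentiating MSCs.

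Among all genes, 17.5% passed as lower and 14.7% as higher in undifferentiated KO, and 22.9% and 17.8% in differentiating KO. On induction 31.6% rose and 32.8% fell in WT, and 36.4% and 36.6% in KO. The interaction term passed as higher in KO for 19.4% and as lower for 20.0%. As DEGs, 1.09% were lower in undifferentiated KO and 1.36% higher in differentiating KO, with 2.76% higher and 3.42% lower for the interaction. Of 22 listed genes of the sensing pathway 20 were tested. In undifferentiated KO 1 was higher and 5 lower, and in differentiating KO 6 were higher and 3 lower, whereas 15 rose on induction in each genotype, with 2 that fell in WT and 3 in KO. Irf5, for a factor downstream of Toll-like receptors, was the only DEG of this list in the interaction term, at -1.09 ± 0.10 (adjusted p = 0.00122). Of 68 other interferon-inducible genes 58 were tested, and 20 were lower and 3 higher in undifferentiated KO, with 4 DEGs that were lower. These were Psmb9, an immunoproteasome subunit gene (-1.13 ± 0.16, adjusted p = 0.00512), Lgals3bp, for a secreted galectin-binding glycoprotein (-1.10 ± 0.15, adjusted p = 0.00407), Trim30a (-1.10 ± 0.27, adjusted p = 0.0280) and the GTPase gene Tgtp2 (-1.03 ± 0.21, adjusted p = 0.0153). In differentiating KO 6 were higher and 1 lower, with Ifi205, a member of the PYHIN family of DNA-binding proteins, as the only DEG (1.39 ± 0.10, adjusted p = 7.25e-04). On induction 40 rose and 1 fell in WT, and 49 rose and 1 fell in KO. The interaction term passed as higher in KO for 20 and as lower for 3. The 10 DEGs of this term were Ifi205, Psmb9, Lgals3bp, Slfn5, Gbp9, Irgm2, Uba7, Tgtp2, Gbp7 and Ifi47, from 2.33 for Ifi205 to 1.01 for Ifi47.

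In the genome (GENCODE vM21, GRCm38) the 44 genes lay on 14 chromosomes, with 8 on chromosome 16, 7 on chromosome 11 and 6 each on chromosomes 5 and 7. The genes named above as DEGs between genotypes were Rtp4 (chromosome 16, 23520291 to 23614222, plus strand), Ifi44 (chromosome 3, 151730922 to 151749960, minus strand) and Ifitm1 (chromosome 7, 140967221 to 140969825, plus strand). Of the 50-base words in Rtp4 transcripts, 11.6% occur in another gene model, as do 5.02% for Ifitm1 and 0% for Ifi44.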

How the data were processed

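Total RNA was depleted of ribosomal RNA and made into strand-specific libraries, read as single ends of 50 bases. Per the labels and the study's methods, the authors aligned reads to mm10 with TopHat2 2.1.0 and computed expression with Cuffdiff of Cufflinks 2.2.1; its library normalization is not given in the sources used here. The deposited table gives 1 RPKM value for each gene in each library, so replicates were kept apart. RPKM was used as log2(RPKM + 0.1) for the 15342 genes whose mean over the libraries reached 0.1 RPKM. Group means were fitted in limma 3.58.1 (R 4.3.3) with a variance trend over all 8 libraries, with Benjamini-Hochberg adjustment over all genes. DEGs had an adjusted p under 0.05 and more than a 2-fold difference, the limits of the study. The fit was tested on simulated data.

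Members and gene lists were chosen with earlier results of these data known. Named with all values are the receptor, STAT and IRF genes and each gene that was a DEG in at least 1 of 5 comparisons; from other lists, the DEGs of genotype or interaction and Ifnb1, Ifngr1, Ifngr2, Jak1 and Tyk2; another gene under this rule is not reported here. The marker Emr1 was not matched in the table. Depth was estimated from the steps of low values in 1120 genes with 1 transcript, of which 71.4% to 77.2% came within 0.05 of whole reads, against 10% by chance; no count test was run. Positions came from GENCODE vM21 and promoters from RefSeq (GRCm38.p6), where Dhx58, Zbp1, Oas2, Mx1, Mx2, Usp18, Parp9, Parp14 and Rtp4 had no entry used here. Alternatives covered the pseudocount, the limit on low values, quantile normalization, median centring, the trend, the fold limit, a block on replicate number, fits restricted to the compared groups, and fits that omitted 1 library at a time, in which a lone library was taken to vary like the other groups.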

Additional observations from a re-analysis of the deposited data

Results flagged for a closer look

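In 8 interferon-stimulated genes the change on induction differed between KO and WT MSCs by the interaction term of the limma fit. The change was more positive in KO each time, and Irf1 fell in WT and rose in KO. The difference in log2 fold change was 1.62 for Ifitm1, 0.85 for Gbp2, 0.75 for Dtx3l, 0.60 for Irf1, 0.52 for Isg20, 0.46 for Ifit2, 0.46 for Ifitm2 and 0.30 for Ifnar2. For Gbp2, Dtx3l and Isg20 the term includes a lower level in undifferentiated KO, and for Ifitm1, Ifit2, Ifitm2, Ifnar2 and Irf1 a higher level in differentiating KO. Among all genes 19.4% passed with a larger and 20.0% with a smaller value in KO.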

How the results depend on the processing

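The number of DEGs among the 43 genes was steady for induction and not for genotype. In undifferentiated MSCs 2 genes were DEGs between genotypes, both lower in KO, against 1.09% of all genes. The count was 0 with a pseudocount of 1, without the limit on low values or without the variance trend. In these settings 0.443%, 0.829% and 1.03% of all genes were DEGs with lower levels. A fit of only the libraries compared gave 5, against 1.08%, and 9 were lower without the fold limit, against 17.5%. With 1 library left out the median log2 fold change lay between -0.60 and -0.49. In differentiating MSCs the count of 1 became 7 without the fold limit and 1 to 3 with 1 library left out, with 2 without replicate 1 and 3 without replicate 2 of differentiating KO. For the interaction the count of 1 became 8 without the fold limit and 1 to 12 with 1 library left out, the 12 arising without replicate 2 of differentiating KO. On induction the counts were 29 in WT and 34 in KO, against 9.69% and 13.0% of all genes that rose. With a pseudocount of 1 they were 25 and 30, against 5.42% and 7.95%. With 1 library left out the median log2 fold change lay between 1.22 and 1.66 in WT and between 1.60 and 2.32 in KO.

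With the replicate block, 0 genes were DEGs between genotypes in undifferentiated MSCs. In that fit 3 passed as lower, against 14.1% of all genes. Deviations of same-numbered libraries correlated at -0.092 to 0.030, and no source used here states that a number marks a shared animal or batch. The block left the counts of DEGs for genotype in differentiating MSCs and for the interaction at 1, against 1.35% and 2.67% of all genes higher. In these comparisons 4 and 6 genes passed as higher, against 15.2% and 16.6%. On induction it gave 28 DEGs in WT and 33 in KO, against 9.69% and 13% of all genes that rose.

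The genes that passed were recomputed in each comparison. Of 877 values under the settings that left out no single library 51 no longer passed, and of 792 with 1 library left out 115 no longer passed, and 0 reversed in either. With 1 library left out, the values that no longer passed were 40 of 72 for genotype in undifferentiated MSCs, 19 of 56 for genotype in differentiating MSCs, 21 of 64 for the interaction, 18 of 272 for induction in WT and 17 of 328 for induction in KO. Median centring moved the median of all genes on induction in WT to -0.10. The cause of these changes was not tested. Depth limits values under about 3 reads, as for Oas1g.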
